A study of Mus musculus with 16 samples.

Results

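Cytosolic ribosomal proteins are the protein parts of the ribosome outside the mitochondria, the particle that reads messenger RNA and joins amino acids into protein. They were taken as the genes whose symbol in the array annotation begins with Rpl or Rps and a digit, with Rplp0, Rplp1, Rplp2 and Rpsa added, and without the Rps6k kinases, Rps19bp genes and pseudogene symbols. Each gene was represented by the brightest of the probe sets that carry its symbol alone. The rule found 49 genes of 18194 on the array: 21 of the small subunit, 20 of the large subunit, the stalk genes Rplp0 and Rplp2, and 6 paralogs (Rpl3l, Rpl7l1, Rpl22l1, Rpl39l, Rps4l and Rps27l). A filter on dim genes kept 47 of them for testing, and Rpl39l and Rps16 fell below it.

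RNA came from the left ventricle of wild-type mice (WT) and of mice with the genotype PPARalpha-/- (KO), which lack the nuclear receptor that switches on genes of fat burning in the heart. Mice of both genotypes had a sham operation or TAC, transverse aortic constriction, in which the aorta is narrowed so that the ventricle pumps against raised pressure, and were studied over 28 days. Each genotype and operation made 1 group, 4 in all (WT sham, KO sham, WT TAC, KO TAC), with 4 Affymetrix arrays per group. The strain, age and sex of the mice, the part of the gene removed in the knockout and whether arrays stand for separate animals are not stated in the labels, so a p-value here weighs a difference against the scatter of these arrays, which may be technical scatter.

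A ribosome has a small subunit, which holds the messenger RNA, and a large subunit, which forms the peptide bond, and each is built from RNA and many small proteins made in matched amounts. The messenger RNAs of most of these proteins begin with a terminal oligopyrimidine tract, through which the kinase mTOR controls how fast they are translated. A heart that grows under pressure makes more protein and is known to make more ribosomes. A few ribosomal proteins have paralogs with narrower expression, among them Rpl3l, which is made chiefly in heart and skeletal muscle in place of its counterpart Rpl3. Arrays measure the level of messenger RNA, not of protein or of finished ribosomes. In tissue RNA, fewer cells of a type and less RNA per cell cannot be told apart.

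The promoters show letters that many of these genes share. RefSeq promoters (GRCm38.p6) were found for 43 of the 49 genes, and the 250 bases before each gene's start were searched on both strands. The letters CGGAAG, the core of sites bound by ETS factors, stood in 25 of the 43 (58.1%), against 13.8% of 27025 genes with a promoter of the same length. GGGCGG, the GC box, stood in 48.8% against 33.0% of all genes. TATAAA, the TATA box, stood in 9.3% against 13.0%, and CANNTG, the E-box of muscle and other helix-loop-helix factors, in 48.8% against 66.1%. Each share counts a gene once, the motifs can occur together in 1 promoter, and a match is a description, not a bound site.

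Shown here are Rpl3l, the only one of these genes that passed the test in any comparison, and Rpl22l1, a paralog whose groups separated in both comparisons with KO sham. Rpl38 and Rpl4, large-subunit genes described below in sham and in WT TAC, are shown too. Each sequence ends at the base before the gene's start, and capitals mark CGGAAG on either strand. They cover chr17:24727576-24727825 (plus strand, 250 bases), chr3:28805358-28805507 (plus), chr11:114668430-114668579 (plus) and chr9:64173237-64173386 (plus), the last 3 with 150 bases each.
Rpl3l: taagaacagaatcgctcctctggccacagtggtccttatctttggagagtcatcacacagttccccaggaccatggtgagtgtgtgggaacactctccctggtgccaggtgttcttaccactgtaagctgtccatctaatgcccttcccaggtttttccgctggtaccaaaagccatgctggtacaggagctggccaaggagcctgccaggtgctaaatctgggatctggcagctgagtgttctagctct
Rpl22l1: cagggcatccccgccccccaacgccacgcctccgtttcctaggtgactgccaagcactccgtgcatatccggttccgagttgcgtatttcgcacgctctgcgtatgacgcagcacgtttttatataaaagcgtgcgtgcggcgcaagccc
Rpl38: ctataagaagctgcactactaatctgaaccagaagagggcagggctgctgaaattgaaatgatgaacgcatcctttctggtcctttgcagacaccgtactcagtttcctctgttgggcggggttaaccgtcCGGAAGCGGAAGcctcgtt
Rpl4: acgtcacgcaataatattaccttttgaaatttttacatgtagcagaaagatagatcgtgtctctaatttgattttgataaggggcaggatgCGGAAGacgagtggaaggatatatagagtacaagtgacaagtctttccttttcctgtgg
Rpl38 has 2 copies of CGGAAG in its stretch and Rpl4 has 1, while the stretches of Rpl3l and Rpl22l1 hold 0. E-boxes number 3 in the 250 bases of Rpl3l, 1 in the 150 of Rpl4 and 0 in those of Rpl22l1 and Rpl38. Of the 43 genes searched 25 hold CGGAAG. Among the paralogs searched Rpl39l holds it, while Rpl3l, Rpl22l1, Rpl7l1 and Rps27l do not. Its lack is not particular to paralogs, since Rpl11 and Rps3 are among the other genes without it.

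The targeted gene was checked first. Ppara had log2 signals of 11.17, 10.94, 10.59 and 11.11 in WT sham, 9.51, 9.13, 9.35 and 9.03 in KO sham, 11.08, 10.61, 10.44 and 10.91 in WT TAC, and 9.04, 8.73, 8.99 and 8.60 in KO TAC. The genotypes did not overlap, and whether these probes lie in the removed part is not known here. Markers of cardiomyocytes were bright, as the labelled tissue calls for: Actc1, cardiac actin, had a mean log2 signal of 16.37. The mean log2 signal of 9 probe sets for hybridisation spike-ins, RNAs added to every sample before hybridisation, was 12.45 ± 0.13 (SD, n = 4) in WT sham, 12.66 ± 0.21 in KO sham, 12.81 ± 0.18 in WT TAC and 12.33 ± 0.32 in KO TAC. It was highest on WT TAC replicate 3 (13.04) and lowest on KO TAC replicate 3, with replicate 2 next (12.13). RNA integrity was gauged by the log2 signal at the tail end of a transcript minus that at its front end. For beta-actin this was 0.58 ± 0.04, 0.66 ± 0.10, 0.46 ± 0.12 and 0.31 ± 0.09 in the same order of groups. For Gapdh it was -0.41 ± 0.06, -0.40 ± 0.03, -0.36 ± 0.05 and -0.36 ± 0.02, which does not order the groups as beta-actin does.

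Most ribosomal protein probe sets were bright. The mean log2 signal over all arrays was at least 14 for 32 of the 47 tested genes, between 12 and 14 for 5 and under 12 for 10. Of the 49, 19 lay in the top 1% of all genes by signal (181 genes). The brightest were Rps29, Rps14 and Rps2, all of the small subunit, and the dimmest were Rps16, Rpl39l and Rpl14. A probe set's signal depends on its probes as well as on its target, so these ranks do not order the transcripts. Rps16, a small-subunit protein of every ribosome, was at the floor on 14 of 16 arrays and is given no comparison. A further 110 probe sets carry a symbol of the rule together with other genes and were not used. Rpl3, Rpl5, Rpl10, Rpl36a and Rplp1 are among the symbols for which no probe set of their own was available and are not analysed here.

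The bright ribosomal protein genes went up and down together from array to array. With group means removed, the mean Pearson correlation between pairs over 16 arrays was 0.58 for the 32 genes of at least 14, 0.29 for the 245 other genes of that brightness, 0.02 for the 10 tested ribosomal protein genes under 12 and 0.00 over all genes. Rpl11, a large-subunit protein that also binds the p53 regulator Mdm2, followed the mean of the others most closely (r = 0.94). Rpl7l1, a paralog of Rpl7 known for a role in ribosome assembly, ran against it (r = -0.46). These are descriptions: the genes share arrays, scaling and brightness.

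**Figure D1:**
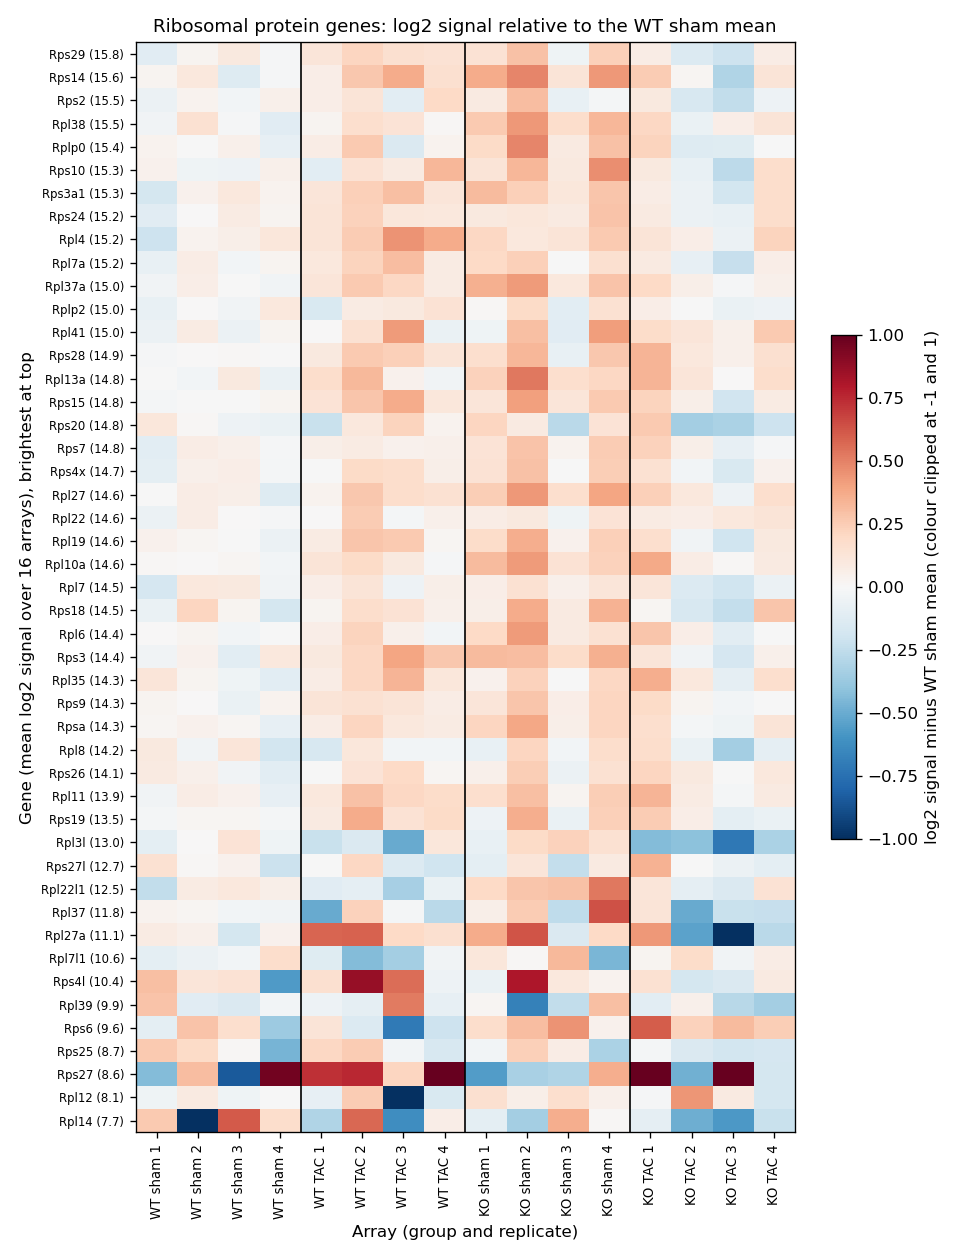
Heat map of the 47 tested ribosomal protein genes (rows, brightest at the top) on the 16 arrays (columns, by group and replicate), coloured by log2 signal minus the WT sham mean, clipped at -1 and 1. The 32 genes of at least 14 are mostly red in KO sham and WT TAC and palest or blue on KO TAC replicates 2 and 3, while the rows under 12 at the bottom follow no shared pattern.

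In sham hearts, ribosomal protein messages tended to be slightly higher in the knockout than in the wild type, and no single gene passed the test. Fold changes were positive for 41 of 47 tested genes, against 54.4% of all 10916 genes tested, with a median of 0.17 (log2) against 0.02 for all genes. Limma called 0 of 47 at an adjusted p under 0.05 (Benjamini-Hochberg over all genes tested), where it called 0.742% of all genes, and the smallest adjusted p among the members was 0.249. At an unadjusted p under 0.05 there were 12, each of them higher in KO, against 8.52% of all genes. The 4 arrays of KO sham lay above the 4 of WT sham without overlap for 16 of 47 genes, against 3.29% of all genes, and below for 0, against 2.62%.

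The higher values in KO sham came from both subunits. Of the small subunit 18 of 20 tested genes were positive (median 0.17), of the large subunit 18 of 20 (median 0.18), and both stalk genes were. All 32 genes with a mean signal of at least 14 were positive, with a median of 0.18, while the 245 other genes of that brightness had a median of 0.07 and 175 positive. That difference between the 2 sets was not tested. The 10 tested genes under 12 were split 5 to 5.

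Rps14, a small-subunit protein whose shortage causes anaemia in a human myelodysplastic syndrome, gave log2 signals of 15.47, 15.55, 15.32 and 15.43 in WT sham and 15.81, 15.93, 15.57 and 15.87 in KO sham. All 4 KO values stood above all 4 WT values, and KO sham replicate 3 lay closest to WT. The difference was 0.35 ± 0.12 (standard error, n = 4 per group), or 1.28-fold, with a limma adjusted p of 0.345. Rpl38, a large-subunit protein whose loss disturbs the translation of Hox messages in mouse embryos, read 15.38, 15.57, 15.41 and 15.31 in WT sham and 15.68, 15.85, 15.59 and 15.75 in KO sham. The highest WT array and the lowest KO array nearly met, and the difference was 0.30 ± 0.10 (limma adjusted p = 0.274). Rpl27, of the large subunit, differed by 0.31 ± 0.10 (limma adjusted p = 0.272).

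Rplp0, the base of the stalk that recruits translation factors and a common reference gene in quantitative PCR, read 15.32, 15.28, 15.33 and 15.20 in WT sham and 15.48, 15.77, 15.37 and 15.58 in KO sham. The groups did not overlap, and the KO arrays were spread more widely. Its difference was 0.27 ± 0.12 (limma adjusted p = 0.511). Rplp2, the other stalk gene measured, overlapped, with 14.93 to 15.10 in WT sham and 14.90 to 15.19 in KO sham. Rpsa, a small-subunit protein also known as the laminin receptor, lay at 14.13 to 14.26 in WT sham and 14.28 to 14.61 in KO sham, and Rpl11 at 13.66 to 13.81 and 13.77 to 14.04. At the other end, the dim probe set of Rps27 gave -0.20 ± 0.46, an error larger than the value.

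Other measures moved with genotype in sham. Spike-in signal was higher in KO sham by group mean (above), with that signal as a covariate the members' median was 0.10, and without the 3 arrays of most extreme spike-in signal, none of them a sham array, it was 0.17. The median stayed positive in all 15 other settings. The summed signal of 6 macrophage markers was 13.37 to 13.65 (log2) in WT sham and 13.76 to 13.88 in KO sham, with 5 of 6 positive and 0 called, and that of 4 atrial markers was 13.96 to 14.78 and 14.79 to 15.76, with 4 of 4 positive and 0 called. The sum of 5 smooth muscle and pericyte markers was 14.58 to 14.90 in KO sham and higher on every WT sham array (up to 15.11), with 4 of 4 tested genes negative and 0 called. All 8 cardiomyocyte markers were positive (median 0.16, 0 called), with sums of 18.85 to 19.12 and 18.99 to 19.26. Their part in the result was not tested.

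**Figure D2:**
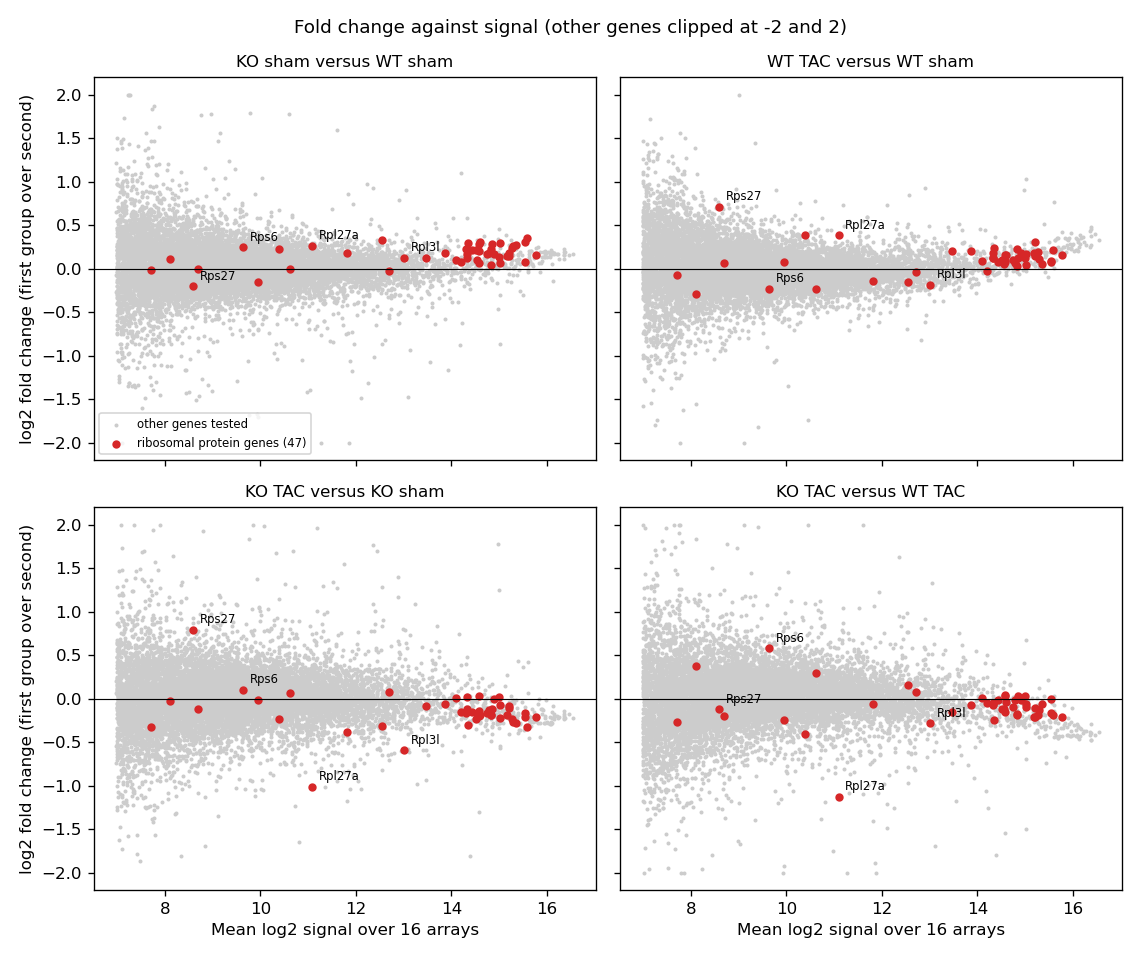
Log2 fold change (vertical) against mean log2 signal over 16 arrays (horizontal) for the 47 tested ribosomal protein genes (red) and the other genes tested (grey, clipped at -2 and 2), 1 panel per comparison. Most red points form a cloud at a signal of at least 14, above 0 in the upper panels and below 0 in the lower ones, within the grey band of other bright genes; dim members such as Rps27 and Rpl27a scatter widely.

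Pressure load in wild-type hearts gave no call. Limma called 0 of 47 in WT TAC against WT sham, and 0% of all genes. At an unadjusted p under 0.05 there were 2 members, Rps3 and Rpl4, against 7.62% of all genes. Of 47 genes 38 were positive, against 50% of all genes, and the median was 0.10 against -0.00. WT TAC lay above WT sham without overlap for 13 of 47 genes, against 2.64% of all genes, and below for 0, against 1.64%. Other bright genes did the same: the 32 bright members had a median of 0.12 and the 245 other bright genes one of 0.13.

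Rpl4, a large-subunit protein lining the tunnel through which the new chain leaves, read 14.86, 15.09, 15.12 and 15.17 in WT sham and 15.19, 15.32, 15.51 and 15.43 in WT TAC. WT TAC replicate 1 exceeded the highest sham array by little. The difference was 0.30 ± 0.10 (limma adjusted p = 0.585). Rps3, a small-subunit protein at the entry of the messenger RNA channel, read 14.18, 14.26, 14.12 and 14.32 in WT sham and 14.32, 14.43, 14.61 and 14.49 in WT TAC. Its groups met at WT sham replicate 4 and WT TAC replicate 1, and the difference was 0.24 ± 0.10. The median of the members in this comparison lost its sign when arrays were centred on their medians (-0.02) or spike-in signal was a covariate (-0.01). Centring shifts all genes of an array alike, and it lowered the median of all genes as well. The dim probe set of Rps27 gave the highest fold change, 0.71 ± 0.46.

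Cell-type markers differed between these groups too. Of 8 cardiomyocyte markers 7 were positive in WT TAC, each of the 7 at an unadjusted limma p under 0.05 and 0 called (median 0.31), and their summed log2 signal was 18.85 to 19.12 in WT sham and 19.17 to 19.65 in WT TAC. The sum of 4 atrial markers was 13.96 to 14.78 and 15.05 to 15.58, although 3 of the 4 were negative (median -1.98). That sum mostly follows Nppa, whose mean log2 signal was 15.01, against 10.04, 9.11 and 7.76 for Myl4, Myl7 and Sln. Their part in the members' values was not tested.

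In knockout hearts most fold changes under load were negative, and 1 member passed the test. In KO TAC against KO sham, limma called 1 of 47 genes, Rpl3l, which fell, against 2.57% of all genes called in either direction and 0.98% called lower. At an unadjusted p under 0.05 there were 10 members, each lower in KO TAC, against 16% of all genes. Of 47 genes 39 were negative, against 50% of all genes, and the median was -0.16 against 0.00. KO TAC lay below KO sham without overlap for 3 genes (Rpl3l, Rpl22l1 and Rps3), against 5.35% of all genes, and above for 0, against 5.42%. The bright members and the 245 other bright genes had the same median, -0.17.

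Rpl3l, the striated-muscle paralog of Rpl3, read 13.04, 13.14, 13.27 and 13.10 in WT sham, 13.07, 13.33, 13.37 and 13.29 in KO sham, 12.92, 13.00, 12.64 and 13.26 in WT TAC, and 12.71, 12.73, 12.42 and 12.82 in KO TAC. Every KO TAC array lay below every sham array of either genotype, and WT TAC spread over both ranges. Rpl3l fell by 0.59 ± 0.13 on the log2 scale in KO TAC against KO sham, or 1.51-fold (limma adjusted p = 0.027). Against WT TAC the difference was -0.28 ± 0.13 (limma adjusted p = 0.297), in WT TAC against WT sham it was -0.19 ± 0.13 (limma adjusted p = 0.776), and in KO sham against WT sham 0.12 ± 0.13. The difference between the TAC responses was -0.41 ± 0.18 with a limma adjusted p of 0.48, so a larger fall in the knockout was not shown. Rpl3l has 1 probe set, and its counterpart Rpl3 is not analysed here.

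The size of the Rpl3l fall was steadier than its call. It lay between -0.60 and -0.47 over 14 other settings, and between -0.66 and -0.51 with any 1 KO array left out. The call was lost when arrays were centred on their medians (-0.47, limma adjusted p = 0.239), with no filter (0.0801), with probe sets averaged (0.0501), with spike-in signal as a covariate (-0.59, 0.096), without KO TAC replicates 2 and 3 and WT TAC replicate 3 together (-0.50, 0.151) and with only the 8 KO arrays fitted (0.0715). It was also lost when KO sham replicate 2, 3 or 4 was left out, or KO TAC replicate 2 or 3 (limma adjusted p between 0.0635 and 0.0882). Cell-type markers moved alongside it. All 8 cardiomyocyte markers were lower in KO TAC than in KO sham (median -0.22, 0 called, summed log2 signal 18.75 to 19.11 against 18.99 to 19.26), and all 7 fibroblast markers were higher (median 0.86, 4 called, 15.93 to 16.10 against 15.29 to 15.52). Of 4 atrial markers 3 were lower (median -1.14, 0 called lower) and 1 was called higher, with sums of 15.83 to 16.12 against 14.79 to 15.76. Their part in the fall was not tested.

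Rpl22l1, the paralog of Rpl22, read 12.25, 12.58, 12.60 and 12.56 in WT sham, 12.70, 12.78, 12.79 and 13.03 in KO sham, 12.38, 12.41, 12.17 and 12.43 in WT TAC, and 12.61, 12.41, 12.35 and 12.64 in KO TAC. KO sham stood above every array of the other groups. The difference was 0.32 ± 0.11 against WT sham (limma adjusted p = 0.342) and -0.32 ± 0.11 in KO TAC against KO sham (limma adjusted p = 0.169), and neither passed. Rpl22 itself, which binds RNA outside the ribosome as well, overlapped in all groups, with 14.46 to 14.59 in WT sham, 14.48 to 14.66 in KO sham, 14.50 to 14.78 in WT TAC and 14.59 to 14.65 in KO TAC.

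The remaining paralogs showed no shared direction. Rps27l, a p53 target, lay at 12.50 to 12.87 in WT sham, 12.47 to 12.83 in KO sham, 12.51 to 12.92 in WT TAC and 12.61 to 13.05 in KO TAC. Rpl7l1 lay at 10.56 to 10.83, 10.20 to 10.98, 10.22 to 10.62 and 10.62 to 10.84 in the same order, and Rps4l at 9.67 to 10.54, 10.17 to 11.05, 10.19 to 11.11 and 10.06 to 10.39. Rpl39l, known for its high level in male germ cells, was below the filter and not tested, and read 6.36 to 7.07 in WT sham, 5.35 to 5.91 in KO sham, 5.15 to 6.85 in WT TAC and 4.79 to 6.37 in KO TAC.

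Rps3 had the smallest adjusted p after Rpl3l in KO TAC against KO sham. It read 14.54, 14.53, 14.40 and 14.58 in KO sham and 14.34, 14.18, 14.05 and 14.27 in KO TAC, without overlap. The difference was -0.30 ± 0.10 (limma adjusted p = 0.123), and limma with trend and robust estimation called it (adjusted p = 0.0398). Against WT sham, KO sham was 0.29 ± 0.10 higher (limma adjusted p = 0.292), also without overlap. The 3 probe sets of Rps3 gave 0.27 to 0.30 for that difference, but -0.30 to -0.08 for KO TAC against KO sham and -0.06 to 0.24 for WT TAC against WT sham. Rps14 read 15.70, 15.46, 15.14 and 15.58 in KO TAC, overlapping KO sham through replicates 1 and 4, and differed by -0.33 ± 0.12 (limma adjusted p = 0.199). Rplp0 read 15.50, 15.15, 15.16 and 15.27 in KO TAC and differed from KO sham by -0.28 ± 0.12 (limma adjusted p = 0.244).

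**Figure D3:**
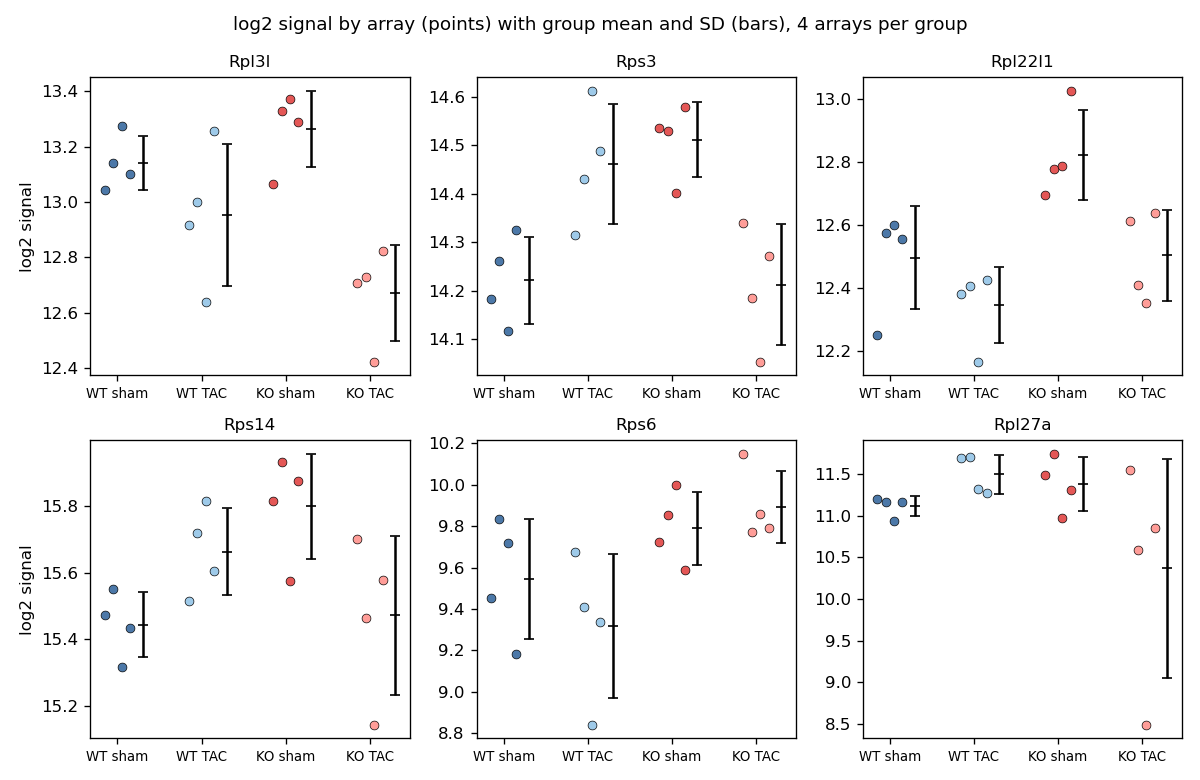
Log2 signal of Rpl3l, Rps3, Rpl22l1, Rps14, Rps6 and Rpl27a on each of 16 arrays (points, vertical axis) by group (horizontal axis), with group mean and SD as bars to the right, 4 arrays per group; each panel has its own vertical scale. The 4 KO TAC points of Rpl3l, between 12.42 and 12.82, all lie below the 8 sham points, and 1 KO TAC point of Rpl27a at 8.49 stands far below the rest.

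Between the genotypes under load no member passed the test. Limma called 0 of 47 in KO TAC against WT TAC, where it called 2.46% of all genes, and 5 members had an unadjusted p under 0.05, against 16.4% of all genes. The median was -0.10 against 0.03 for all genes, with 37 of 47 negative against 45.5%. The groups were separate for 1 gene in each direction, Rps6 higher and Rps29 lower, against 5.13% and 4.42% of all genes. The 245 other bright genes had a lower median, -0.22, than the 32 bright members, -0.08, and 18 of the 245 were called lower. That difference was not tested. All 8 cardiomyocyte markers were lower in KO TAC (median -0.39, 0 called, sums of 18.75 to 19.11 against 19.17 to 19.65). All 7 fibroblast markers were higher (median 0.64, 4 called, 15.93 to 16.10 against 15.38 to 15.78), as were all 6 macrophage markers (median 0.34, 1 called, 13.84 to 14.12 against 13.45 to 13.70). All 4 atrial markers were higher too, with 1 called and sums of 15.83 to 16.12 against 15.05 to 15.58. Their median was the largest of the marker lists in this comparison. The 1 tested erythroid marker, Alas2, was also called higher (1.07, limma adjusted p = 0.0189). The part of these markers in the members' values was not tested.

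Rps6, the small-subunit protein that S6 kinases phosphorylate downstream of mTOR, read 9.67, 9.41, 8.84 and 9.34 in WT TAC and 10.15, 9.77, 9.86 and 9.79 in KO TAC. Every KO TAC array lay above every WT TAC array. The difference was 0.58 ± 0.18, or 1.49-fold, and did not pass (limma adjusted p = 0.116). The sham groups overlapped, with 9.18 to 9.83 in WT and 9.59, 9.72 and 9.85 on 3 of 4 KO arrays, while KO sham replicate 3 lay above those and above every WT sham array. Rps6 is known as an abundant protein of every ribosome, and this probe set was dim. Rps29, a small zinc-binding protein, read 15.82, 15.91, 15.86 and 15.85 in WT TAC and 15.78, 15.57, 15.49 and 15.78 in KO TAC. The groups were apart by a narrow margin, and the difference was -0.21 ± 0.10 (limma adjusted p = 0.307), which turned to 0.05 under quantile normalization. Rps3 differed by -0.25 ± 0.10 (limma adjusted p = 0.207).

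Rpl27a, of the large subunit, had the lowest fold change in both comparisons of KO TAC, and 1 array set much of its size. It read 11.55, 10.58, 8.49 and 10.85 in KO TAC, 11.49, 11.75, 10.97 and 11.32 in KO sham, and 11.70, 11.71, 11.32 and 11.28 in WT TAC. KO TAC replicate 3 was far below the rest, replicates 2 and 4 also lay below every array of KO sham and WT TAC, and replicate 1 was within them. The difference was -1.01 ± 0.45 against KO sham and -1.13 ± 0.45 against WT TAC (limma adjusted p = 0.282 and 0.223), and without KO TAC replicate 3 it was -0.38 and -0.50. Its second probe set, of mean log2 signal 6.14, gave 0.45 ± 0.71 against WT TAC.

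Different probe sets of a gene did not always give the same difference. Rps24 had the widest range in KO TAC against WT TAC: its 4 probe sets of at least 13.71 gave -0.11 to 0.10, while the 2 of 7.51 and 7.31 gave -2.01 ± 0.56 and 1.65 ± 0.45. Rps18 came after Rpl27a, with -0.12 ± 0.14 from its brightest probe set and -1.50 ± 0.69 from one of mean log2 signal 5.42. With every probe set tested separately, 1 of a member was called in this comparison, a probe set of Rpl7 (0.64, limma adjusted p = 0.0224), while the brightest probe set of Rpl7 gave -0.12 ± 0.11. Errors of single probe sets come from a limma fit in which every probe set was a row of its own.

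The TAC responses of the genotypes pointed in opposite directions in the median, and no gene passed the test of that difference. Limma called 0 of 47 for the difference between the TAC responses, and 0% of all genes. Of 47 genes 42 were negative, against 49% of all genes, with a median of -0.25 against 0.01, and 15 had an unadjusted p under 0.05, each negative, against 10.3% of all genes. All 32 bright members were negative (median -0.26), and so were 223 of the 245 other bright genes (median -0.28) and 8 of 8 cardiomyocyte markers (median -0.54). Rps3 had the smallest adjusted p, with -0.54 ± 0.13 (limma adjusted p = 0.248), and Rps14 had -0.55 ± 0.18 (limma adjusted p = 0.366). Rpl27a had the lowest value, -1.39 ± 0.63, which was -0.77 without KO TAC replicate 3.

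The medians of the TAC comparisons moved with spike-in signal and scaling. The mean deviation of the 32 bright members from WT sham was 0.13 ± 0.07 (SD, n = 4) in WT TAC, 0.03 ± 0.13 in KO TAC and 0.19 ± 0.12 in KO sham, and that of the 245 other bright genes was 0.15 ± 0.05, -0.08 ± 0.11 and 0.06 ± 0.09. Both were lowest on KO TAC replicate 3 (-0.12 and -0.22), the array of lowest spike-in signal. With spike-in signal as a covariate the members' medians became -0.01 for WT TAC against WT sham, -0.06 for KO TAC against KO sham, 0.06 for KO TAC against WT TAC and -0.05 for the difference between responses. Without KO TAC replicates 2 and 3 and WT TAC replicate 3 the median of KO TAC against KO sham was -0.07, and that of KO TAC against WT TAC was 0.01. Leaving out 1 array moved the median by more than 1.5 times in KO TAC against KO sham when KO sham replicate 2 (-0.11) or KO TAC replicate 3 (-0.11) was left out, and in KO TAC against WT TAC without WT TAC replicate 2 (-0.06) or KO TAC replicate 3 (-0.05).

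**Figure D4:**
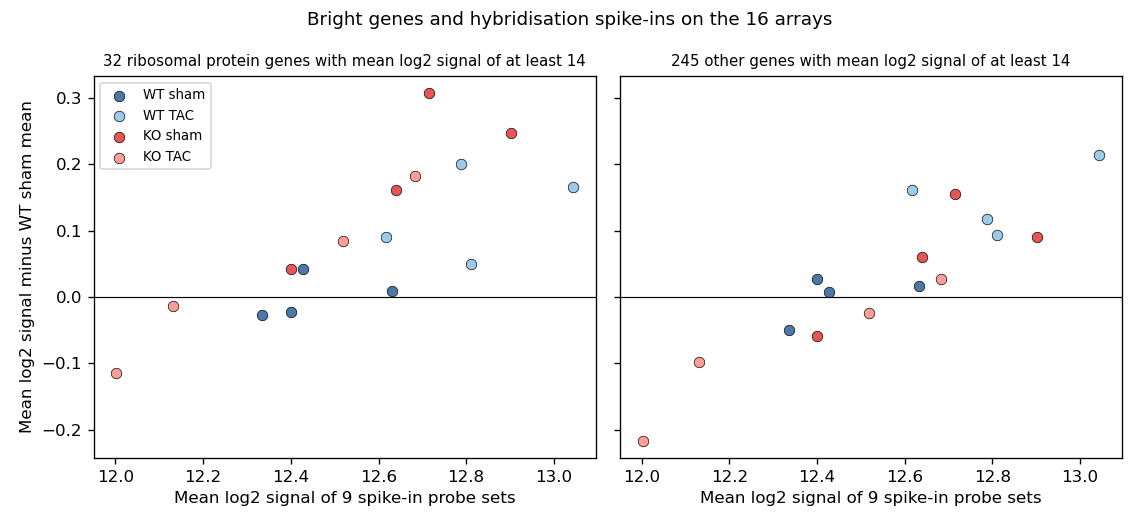
Mean log2 signal minus the WT sham mean (vertical) against the mean log2 signal of 9 spike-in probe sets (horizontal), 1 point per array coloured by group, for the 32 ribosomal protein genes of at least 14 (left) and the 245 other genes of that brightness (right). Arrays of low spike-in signal lie low in both panels, down to -0.12 and -0.22 on KO TAC replicate 3, and the 4 KO sham arrays lie higher in the left panel than in the right.

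**Figure D5:**
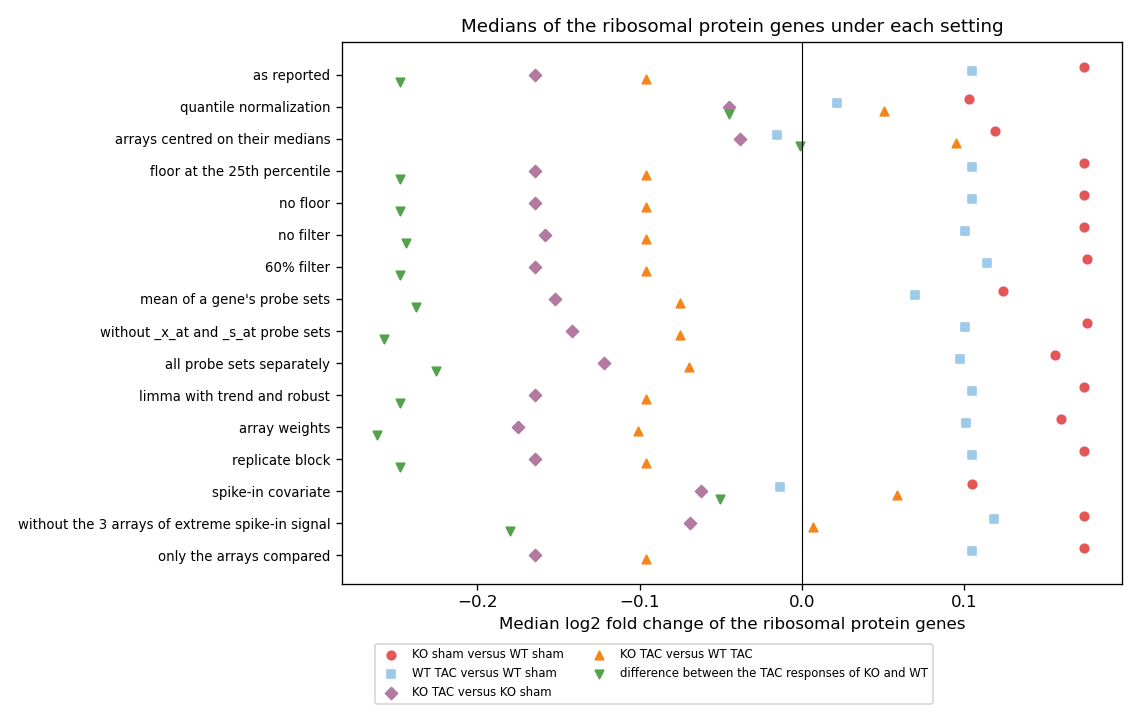
Median log2 fold change of the ribosomal protein genes (horizontal) in 5 comparisons (colours and markers) under each processing setting (vertical, the reported setting at the top). KO sham against WT sham stays between 0.10 and 0.18, while the other medians move towards 0 or past it under quantile normalization, median centring and the spike-in covariate.

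Genes that build and control the ribosome were mostly outside the calls. Mitochondrial ribosomal proteins, the counterpart in another compartment, had medians between -0.08 and 0.01 over 76 genes in the 5 comparisons. Of these Mrps35 fell in KO TAC against KO sham (-0.39 ± 0.10, limma adjusted p = 0.046) and Mrpl39 was lower in KO TAC than in WT TAC (-0.39 ± 0.09, limma adjusted p = 0.0438). Fau, a small-subunit protein made as a fusion that the symbol rule does not catch, was not called in any of the 5 comparisons (0.26 ± 0.12 in KO sham against WT sham). Translation factors whose messages carry the same oligopyrimidine start had 0 of 15 called in each comparison, with medians of 0.13 in KO sham against WT sham (14 of 15 positive, against 54.4% of all genes) and -0.05 in KO TAC against KO sham (12 of 15 negative, against 50%).

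For the steps upstream of the ribosome, calls were single. Of 17 tested genes of RNA polymerase I, which transcribes ribosomal RNA, 1 was called: Polr1b, its second-largest subunit, was higher in KO TAC than in WT TAC (0.65 ± 0.15, limma adjusted p = 0.0356), while the list's median there was -0.05. Of 43 tested ribosome assembly factors 1 was called, Utp18, a part of the complex that processes small-subunit RNA, higher in the same comparison (0.79 ± 0.16, limma adjusted p = 0.0148), with a list median of 0.12 and 32 of 43 positive. Over all genes 2.46% were called in that comparison and 54.5% were positive, so 1 call in a list of this size is near the background. In KO TAC against KO sham 0 assembly factors were called, and 34 of 43 were positive (median 0.08), against 50% of all genes. Of the RNA polymerase I genes 0 were called there, and 13 of 17 were negative (median -0.17), against 50%. Limma called 0 of 25 initiation factors, 0 of 9 elongation and termination factors and 0 of 20 genes of translational control by mTOR in each of the 5 comparisons. The calls of Polr1b and Utp18 were both lost with spike-in signal as a covariate (limma adjusted p = 0.166 and 0.259), as were those of Mrps35 and Mrpl39 (0.194 and 0.241). With each of the 8 arrays compared left out in turn, the call of Mrps35 held in 0 of 8 fits, that of Mrpl39 in 1, that of Polr1b in 2 and that of Utp18 in 7. Of the other settings, Mrps35 lost its call in 7 of 14, Mrpl39 in 8 of 14, Polr1b in 7 of 13 and Utp18 in 4 of 13.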

How the data were processed

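The deposited values are linear signal intensity for 45101 probe sets on 16 arrays, made by the authors in GCOS 1.4, which the submitters' processing notes name; the labels give no algorithm settings and no detection calls. Each array's mean between the 2nd and 98th percentiles was 500 (499.802 to 499.817), so the arrays had been scaled.

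Values were raised to at least 11.9 (the 10th percentile), log2 was taken, and genes took the brightest of their single-gene probe sets (34945 of 1 gene, 932 of several and 9160 of none in the annotation). The dimmest 40% of genes were left out. Limma 3.58.1 in R 4.3.3 fitted 1 mean per group on all 16 arrays, two-sided, with Benjamini-Hochberg adjustment over 10916 genes, and called at 0.05. Errors of differences are standard errors. The fit was tested on simulated arrays with known changes. Alternatives covered normalization, floor, filter, probe sets, model, covariate and left-out arrays. The members, lists and settings were chosen with earlier results of these data known. Members named with values were those called, those of the 3 highest and 3 lowest fold changes per comparison in part, the paralogs, the stalk, Rpsa, Rps6 and Rpl11, and those with the widest probe-set ranges. Rps3, Rpl4, Rpl38 and Rps29 were added after their values were seen. The number of arrays limits precision.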

Additional observations from a re-analysis of the deposited data

Results flagged for a closer look

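Among the members described in most detail, 52 checks for an array far from the other 3 of its group gave 2 flags, and chance alone flags about 1 in 20. Rpl22l1 was low on WT sham replicate 1, at a log2 signal of 12.25, with the nearest other array at 12.56. Rpl27a was low on WT sham replicate 3, at 10.94, with the nearest other at 11.16. No explanation of either was tested.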

How the results depend on the processing

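With the replicate number as a block, the counts of called members were 0, 0, 1, 0 and 0 in the 5 comparisons, as reported. Every group holds the same replicate numbers, so a block cannot move the fold changes or their medians. Trend and robust estimation and fitting only the arrays compared leave the fold changes as they are too, and can change only the calls. Same-numbered arrays of different groups deviated together little (median correlation 0.00 over 24 pairs, from -0.19 to 0.14). Pairs of different numbers were not computed, so pairing by number was not tested. The median of KO sham against WT sham moved by less than the spread between arrays (0.10) in all 15 settings, some of which could not move it. The WT TAC against WT sham median became -0.0153 with arrays centred on their medians and -0.0134 with spike-in signal as a covariate. That of KO TAC against KO sham became -0.0449 under quantile normalization, -0.0381 under centring, -0.0625 with the covariate and -0.069 without 3 arrays of extreme spike-in signal. KO TAC against WT TAC turned to 0.0503, 0.0949, 0.0585 and 0.00664 under the same 4. The difference between the TAC responses became -0.0449, -0.00138 and -0.0505 under the first 3. Centring divides all values of an array by 1 factor before the floor, so it shifts members and other genes alike. The median of all genes moved with it, to -0.03, -0.12, 0.13, 0.22 and 0.25 in the 5 comparisons. The cause of the moves under the other settings was not tested. Rpl3l was the member called in KO TAC against KO sham, and the count of 1 became 0 under centring, no filter, averaged probe sets, separate probe sets, the covariate, without the 3 arrays and with only the arrays compared, and 2 with trend and robust estimation; with 1 array left out it ranged from 0 to 1. In KO TAC against WT TAC it was 1 with separate probe sets (Rpl7). Rps29 turned to 0.0501 in KO TAC against WT TAC under quantile normalization. Rps27 in KO sham against WT sham ranged from -0.49 to 0.12 with 1 array left out, positive without WT sham replicate 4.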
